A study of Mus musculus with 24 samples.

Results

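The RNAs found in STAU2 complexes of the mouse cortex at embryonic day 17.5 (E17.5) were described from every peak of the plus-strand and minus-strand lists deposited for that day, 6341 of the 29007 peaks of the series. STAU2 RNA immunoprecipitation (RIP, 3 libraries) was set against the input lysate of the same day (3 libraries). The same design was used at E11.5, E13.5 and E15.5, which gives 24 libraries in 8 groups. The strain and genotype of the mice are not given in the labels. Each biological replicate was 1 litter's worth of pooled cortex, so embryos and cortical areas are mixed, and the RNA comes from whole lysate rather than from one cell type. The antibody was a mouse monoclonal against STAU2, and the library kit is strand-specific. A further RIP, with an anti-T7 antibody was read by qPCR on a few targets and was not analysed here, so no list made with another antibody stands beside these peaks.

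STAU2 belongs to the Staufen family, whose members bind double-stranded RNA. Its RNA-binding domains recognise the shape of paired RNA stems rather than a fixed run of letters, and many of the stems known to be bound by Staufen proteins lie in 3' untranslated regions (3' UTRs). In neurons it travels in ribonucleoprotein granules to dendrites, and in dividing progenitors of the cortex it is passed on unequally between the daughter cells together with its messenger RNAs. At E17.5 in the mouse, the production of upper-layer neurons is ending, neurons are extending axons and dendrites, and the making of glia is beginning.

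Because paired stems are what this protein family binds, the most stable hairpin of at most 30 nt was computed within the peaks that lie in 1 spliced transcript. Printed below are those of some of the best ranked peaks, then of Staufen and a few neuronal transcripts and Psmb7, then examples with low computed energies. They run 5′ to 3′, in DNA letters from GENCODE vM21 transcripts. Capitals mark the bases that are paired in the computed fold.
Plagl1: TCTTCtaacctttGAAGA
Rraga: GGTGGAATGttacTATTTTATC
Fam124a: GCCTCCtctctGGAagGGC
Gsk3a: CCCaTCCTggaAGGAgGGG
Leprot: AGTCATCCaaaaGGcaGTGGCT
Nxf1: AGGAAATGTTgcaAGCATTTTCT
Stau1: CCtGCTtCCActctTGGtttAGCtGG
Stau2: CATaaCTGTCaaccGACGGgATG
Ank2: CTtGGAGCACCtggaGGaTGTTCCcGG
Shank1: CCTCcCCCTGcttttccTAGGGaGAGG
Grin1: GGGGGAGGagcacccccagCCTCCCCC
Psmb7: GGGGTGcatacCACCCC
Slc25a39: GCTTGGCCCGAGgagCTTGGGCCAGGC
Nr2f6: TGGGGaCCCTGgggatCAGGGCCCCA

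Of these hairpins, that of Plagl1 (chr10:13131371-13131388, plus strand, mm10) has 5 base pairs and a computed energy of -4.5 kcal/mol. That of Rraga (chr4:86577192-86577213, plus strand) has 9 pairs at -4.9 kcal/mol, and that of Nxf1 (chr19:8769126-8769148, plus strand) has 10 pairs at -7.4 kcal/mol. The energies of these 3 well-ranked peaks lie on both sides of the median of -6.9 kcal/mol over peaks of 60 to 120 nt. Of them, only the Rraga peak (94 nt) is of that length, while those of Plagl1 and Nxf1 have 125 and 132 nt. A longer peak offers more hairpins to choose the lowest from. The peaks of Gsk3a, Ank2 and Shank1, given next, have 249, 209 and 193 nt, so their energies are not like for like with that median. Those of Fam124a (chr14:62608137-62608155, plus strand) and Leprot (chr4:101658618-101658639, plus strand) came to -6.3 and -6.1 kcal/mol, and that of Gsk3a (chr7:25228349-25228367, minus strand) to -8.8 kcal/mol. All lie in 3' UTRs. Those of Stau2 (chr1:16344732-16344754, minus strand) and Stau1 (chr2:166948338-166948363, minus strand) came to -6.6 and -6.5 kcal/mol. The 3' UTR hairpins of Ank2 (chr3:126923876-126923902, minus strand), which encodes an ankyrin of axons, and Psmb7 (chr2:38588123-38588139, minus strand), a proteasome subunit, came to -10.4 and -10.6 kcal/mol. Lower energies were computed for the synaptic transcripts Shank1, at -11.9 kcal/mol (chr7:44359043-44359069, plus strand), and Grin1, at -17.2 kcal/mol (chr2:25292248-25292274, minus strand). Other synaptic and neuronal transcripts, whose hairpins are not printed above, had weaker ones. Grin2b and Cplx1 came to -5.7 and -6.7 kcal/mol, and Dbn1 and Map1b to -6.7 and -3.9 kcal/mol. The printed neuronal hairpins therefore do not stand for such transcripts in general. The lowest among the 1648 peaks of 60 to 120 nt, -22.4 kcal/mol over 12 pairs, was found in the 3' UTR of Slc25a39, a mitochondrial carrier of the SLC25 family (chr11:102403195-102403221, minus strand). Its peak ranked 974, and that of Nr2f6 (chr8:71374415-71374440, minus strand, -18.5 kcal/mol) ranked 2405. Both were chosen for their computed energies.

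The values behind each peak are the authors' p-value, q-value and signal, with 1 list per strand for all 6 libraries of the day. No library has a value of its own, so no spread between replicates can be given and no test was run. Intervals on shares below are exact 95% intervals that cover counting error only, and peaks, which can share a transcript, are not replicates. Ranks order all peaks of a day by the authors' p, with 1 the lowest. The lists do not say whether the test was one-sided, and without read totals the library depth is unknown. The authors listed 6341 of the 17441 candidate regions that their q-values imply, or 36.4%, which came to 42.2% of the plus-strand and 30.4% of the minus-strand candidates. The median peak was 83 bp wide (interquartile range 53 to 166 bp). Peaks of the plus list that lay over exactly 1 gene were over a plus-strand gene in 95.04% of cases, and those of the minus list in 3.87%.

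An exon of 2972 protein-coding genes held a peak at E17.5, 13.6% of the 21924 in the annotation. On the 3 earlier days in order the share was 9.09%, 11.8% and 19.9%. The best ranked peak was that of Plagl1, which encodes a zinc finger transcription factor and is imprinted (3' UTR, chr10:13131362-13131486, p = 1.04e-08 and q = 9.11e-05 in the authors' deposited list), and 2 more peaks of the same 3' UTR followed at ranks 1453 and 5091. Rraga, a GTPase that recruits mTORC1 to lysosomes when amino acids are present, stood at rank 3 (chr4:86577154-86577247, 3' UTR). Fam124a stood at rank 4. Next came Nfxl1 at rank 5, with its midpoint in an intron, and the predicted chromosome Y gene Gm47283 at rank 6. Reads of a gene on chromosome Y can be shared with a copy on X, so that assignment is uncertain. Gsk3a, a kinase of the glycogen synthase kinase family, stood at rank 7 (chr7:25228335-25228583, 3' UTR) with a signal of 162.5 in the authors' deposited list, and had 2 further peaks at ranks 512 and 1555. Leprot, which overlaps the leptin receptor gene, stood at rank 8, the DNA-repair adaptor Trp53bp1 at rank 9, Xrcc6, a subunit of the Ku complex of DNA end joining, at rank 10, and Nxf1, the export receptor of messenger RNA, at rank 12. Of these 10 genes, 7 had their best peak in the 3' UTR.

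By transcript part, 2322 of the 6341 peaks had their midpoint in a 3' UTR (36.6%, 35.4% to 37.8%), 1222 in coding sequence (CDS; 19.3%), 74 in a 5' UTR (1.17%) and 461 in a noncoding exon (7.27%). Introns held 1744 (27.5%, 26.4% to 28.6%), while 250 lay antisense to a gene (3.94%) and 268 between genes (4.23%). Among the 3845 peaks that touched a protein-coding exon and had an exonic midpoint, 60.4% were in the 3' UTR (58.8% to 61.9%) and 31.8% in the CDS. The longest isoforms of the target genes hold 37.4% of their bases in 3' UTRs and 54.9% in CDS, so the 3' UTR carried more of the peaks than of the bases. Class was read at the midpoint, and with any overlap counted and the CDS put first the 3' UTR share was 44.2%. That share is over all 4604 peaks that touched a protein-coding exon, including those whose midpoint was not exonic. Among the 100 best ranked peaks, 48 lay in a 3' UTR, 28 in an intron and 10 in CDS.

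**Figure D1:**
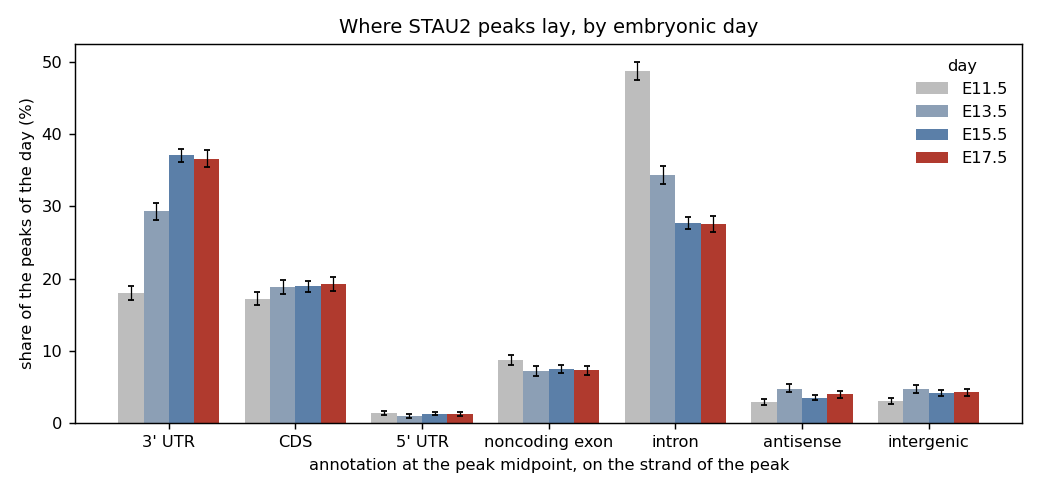
Share of the peaks of each day (percent, vertical axis) by the annotation at the peak midpoint, with 1 bar per embryonic day and exact 95% intervals over peaks. The E17.5 bars stand at 36.6% for 3' UTRs and 27.5% for introns, close to E15.5 and apart from the 17.99% and 48.8% of E11.5.

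Over the 4 days in order (E11.5, E13.5, E15.5, E17.5), the 3' UTR share of all peaks was 17.99%, 29.3%, 37.1% and 36.6%. The intronic share was 48.8%, 34.3%, 27.7% and 27.5%. The E15.5 and E17.5 intervals overlap for both classes. Days differ in the number of candidate regions and, with depth unknown, their libraries may differ in ways that cannot be told apart from age.

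Within the transcript, E17.5 peaks lay further towards the 3' end than those of any other day. For peaks that fit 1 spliced transcript, the median position on a scale of 0 (5' end) to 1 (3' end) was 0.50, 0.65, 0.66 and 0.73 over the same 4 days in order (2579, 3131, 6514 and 4124 peaks). The share that lay beyond the middle of the transcript was 50.02% (48.1% to 52.0%), 68.0% (66.4% to 69.7%), 69.0% (67.8% to 70.1%) and 76.7% (75.4% to 78.0%). The interval at E17.5 overlaps that of no other day. The median distance to the transcript end was 1537, 926, 960 and 695.5 nt. In the genes that had exonic peaks on all 4 days, the median positions were 0.51, 0.63, 0.63 and 0.68. The shares of their peaks beyond the middle were 51.3%, 65.5%, 63.2% and 71.1%. There the E17.5 interval (67.5% to 74.4%) overlaps that of E13.5 (61.7% to 69.1%). With only the best ranked peak of each such gene, 345, 365, 376 and 369 peaks remained, so the genes counted differ between days. Their shares were 54.8%, 66.8%, 65.7% and 74.3%. The E17.5 interval (69.5% to 78.6%) then overlaps those of E13.5 (61.8% to 71.7%) and E15.5 (60.7% to 70.5%).

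**Figure D2:**
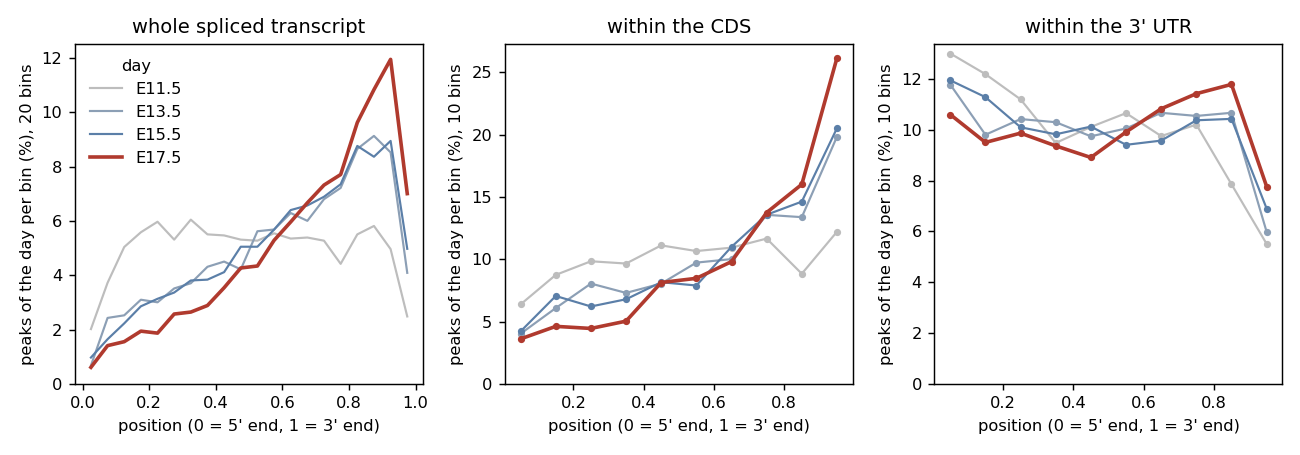
Percent of the peaks of each day (vertical axis) along the whole spliced transcript in 20 bins (left), the CDS in 10 bins (middle) and the 3' UTR in 10 bins (right), from 0 at the 5' end to 1 at the 3' end. The E17.5 curve is the lowest near the 5' end of the transcript and of the CDS, and 26.2% of its CDS peaks fall in the last of the 10 CDS bins.

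The same lean was present inside the CDS. The median CDS peak lay at 0.54, 0.66, 0.69 and 0.75 of the coding sequence over the 4 days. The share of CDS peaks within 200 nt of the end of the coding sequence was 17.9%, 24.98%, 27.8% and 31.8%. Inside the 3' UTR the median position was 0.44, 0.48, 0.47 and 0.52. The median 3' UTR peak of E17.5 was 570.5 nt past the stop codon and 500 nt before the end. In 3' UTRs of at least 1000 nt it lay at 0.60 (1397 peaks).

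Most genes carried few peaks. Of the 2972 genes, 1865 had a single exonic peak (62.8%), 716 had 2 and 48 had 5 or more. Zrsr2, a component of the spliceosome that recognises the 3' splice site, had the most, with 12 peaks between ranks 622 and 5136, of which 10 had their midpoint in its 3' UTR. Shank1, a scaffold protein of the postsynaptic density, and Dst, a linker of the cytoskeleton, had 8 each. In Shank1, 5 were in the 3' UTR and 3 in the CDS. Casc3, a core protein of the exon junction complex, Fam219a, C2cd5, the translation factor gene Eif4g1, Zfp467, the chromatin remodeller gene Smarca4 and Fxr2, a relative of the fragile X protein, had 7 each. All 7 peaks of Zfp467 lay in the 3' UTR. For Eif4g1, 3 lay in CDS and 4 had their midpoint in an intron. Over all genes, 1523 had peaks in the 3' UTR and not in the CDS or 5' UTR (51.2%), 683 in the CDS alone (23.0%) and 295 in the 3' UTR and the CDS (9.93%).

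Beyond the 3' UTR, the best ranked CDS peaks after those of Gm47283 and Xrcc6 were in Lrp1, an endocytic receptor (rank 25), Atf7ip, a chromatin cofactor (rank 26), Auts2, a gene of neurodevelopment (rank 40), and Pigs, a subunit of the transamidase that attaches GPI anchors (rank 58). In 5' UTRs, the leading peaks were in Fahd2a (rank 14), Limd2 (rank 123), Plscr3 (rank 153) and Zfp575 (rank 192). Their signals in the authors' deposited list ran from 3.84 for Limd2 to 13.1 for Zfp575, beside a median of 17.5 for all 5' UTR peaks and 28.5 for all 3' UTR peaks. Well-ranked 3' UTR peaks also lay below their median, as in Rraga (18.9) and Ppp3ca (16.7).

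The intronic peaks were unevenly spread. They lay in 834 host genes, and the 20 with the most held 543 of the 1744 (31.1%). Gli3, a transcription factor of Hedgehog signalling, had 79, Plcg1, a phospholipase, had 64, the chromatin remodeller gene Chd7 had 38, and Evi5, Srrm3 and Setd5 had 34, 27 and 25. In Gli3, 69 of the peaks had the identical signal of 9.09 in the authors' deposited list, across 23489 bp of the plus strand (chr13:15615929-15639417), with a median width of 50 bp. Neither Gli3 nor Chd7 had an exonic peak. Over the day, 542 intronic peaks (31.1%) shared their exact signal with another peak of the same chromosome and strand. Counted once for each such signal, the intronic share of all peaks was 21.7%.

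**Figure D3:**
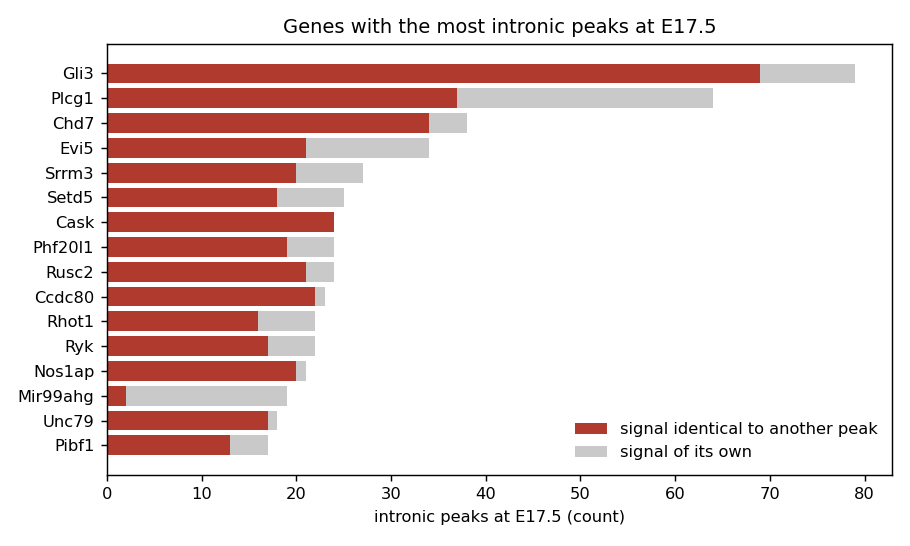
Number of intronic peaks at E17.5 (horizontal axis) in the 16 genes with the most, split by whether a peak has the same signal as another peak of its chromosome and strand. Nearly all peaks of Chd7 (34 of 38) and Nos1ap (20 of 21), and all 24 of Cask, carry a signal shared with another peak.

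Many peaks with their midpoint in an intron also touched an exon. Of the 1744, 752 touched a protein-coding exon, 20 touched an exon of noncoding genes only, and 972 touched no exon, which is 15.3% of all peaks. A whole annotated intron was crossed by 542 of the 1744. Peaks that span a whole intron made up 5.13%, 7.17%, 8.73% and 11.1% of the lists of the 4 days (704 peaks at E17.5, 10.3% to 11.9%). Among them were Wasf1, which drives branched actin assembly (chr10:40934613-40936458, rank 67), the splicing regulator Celf3 (chr3:94487835-94489508, rank 53), and Ift88, a protein of cilia (9794 bp wide, rank 183).

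Many genes that build and run the neuronal cytoskeleton had a peak. The gene lists were chosen with earlier results of these data known and were given no test, so their shares stand beside the 13.6% of all protein-coding genes as a description. That 13.6% counts every annotated coding gene, with no filter for expression in the cortex. A list of genes expressed there could exceed it for that reason alone, which was not tested. Of 35 actin and microtubule regulators, 17 had a peak (48.6%, 31.4% to 66.0%), and 15 of these had their best peak in the 3' UTR. They were led by Dbn1, the dendritic spine protein drebrin (rank 42), Wasf1, and the actin-severing protein gene Cfl1 (rank 138, signal 3057), followed by Spire1, Mapre2 and Tubb2b. Over the 4 days in order the share of this list with a peak was 40.0%, 34.3%, 68.6% and 48.6%. Of 27 pan-neuronal genes, 13 had a peak (48.1%), 12 of them best in the 3' UTR, with Ank2 at rank 93, the neuronal splicing factor gene Rbfox3 at 422 and Stmn3 at 440. Of 46 genes in the kinesin and dynein list, 12 had a peak (26.1%, 14.3% to 41.1%), among them Kif1bp, which encodes a kinesin-binding protein and not a motor. Kif1a, the motor of synaptic vesicle precursors, came first at rank 217 and Kif5a stood at rank 736. Of 41 axon guidance genes, 10 had a peak (24.4%, 12.4% to 40.3%, an interval that holds 13.6%), including 5 plexins.

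Synapse and signalling genes were also present. Of 41 synapse genes, 14 had a peak (34.1%, 20.1% to 50.6%), and 11 had their best peak in the 3' UTR. After Shank1 (rank 157) came Syn1 (628) and the NMDA receptor subunit genes Grin1 (816) and Grin2b (855), then Vamp2 (897) and Gabbr1 (1398). Over the days in order, 2, 14, 20 and 14 members of this list had a peak, or 4.88%, 34.1%, 48.8% and 34.1%. The share of all protein-coding genes on those days was 9.09%, 11.8%, 19.9% and 13.6%. Among 134 potassium, sodium and calcium channel genes, 3, 5, 16 and 17 had a peak (2.24%, 3.73%, 11.9% and 12.7%). At E17.5 that is near the share of all genes. Of 14 calmodulin, CaMK and calcineurin genes, 4 had a peak (28.6%, 8.39% to 58.1%, an interval that holds 13.6%). They were led by Ppp3ca, the catalytic subunit of calcineurin, at rank 13.

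RNA-binding proteins and chromatin regulators formed large groups of targets, on other days as well as at E17.5. Over the 4 days in order, 54.0%, 39.7%, 65.1% and 46.0% of the RNA-binding list had a peak. For the chromatin list the shares were 41.2%, 58.8%, 72.5% and 43.1%. Of 63 RNA-binding and translation control genes, 29 had a peak (46.0%, 33.4% to 59.1%), with Celf3, Nova2 (rank 210), the nonsense-mediated decay genes Smg5 (289) and Smg1 (394), and the progenitor RNA-binding protein gene Msi1 (383) at the top. Stau2 itself had a 3' UTR peak (chr1:16344694-16344791, rank 3992) and so did Stau1 (chr2:166948290-166948363, rank 1813). Of 51 chromatin regulators 22 had a peak (43.1%). The best peak was in the 3' UTR for 9 of these 22, against 15 of the 17 cytoskeletal genes. Of 26 genes of amino acid sensing and mTOR signalling, 9 had a peak (34.6%, 17.2% to 55.7%), led by Rraga and Tsc1 (rank 191), a brake on mTORC1. Of 12 RNAs reported as STAU2 cargo, 4 had a peak (33.3%, 9.92% to 65.1%, an interval that holds 13.6%). These were Cplx1 (rank 2230), Ddx1 (2830), Map1b (4081) and Bbs2 (4318), none near the top of the list.

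**Figure D4:**
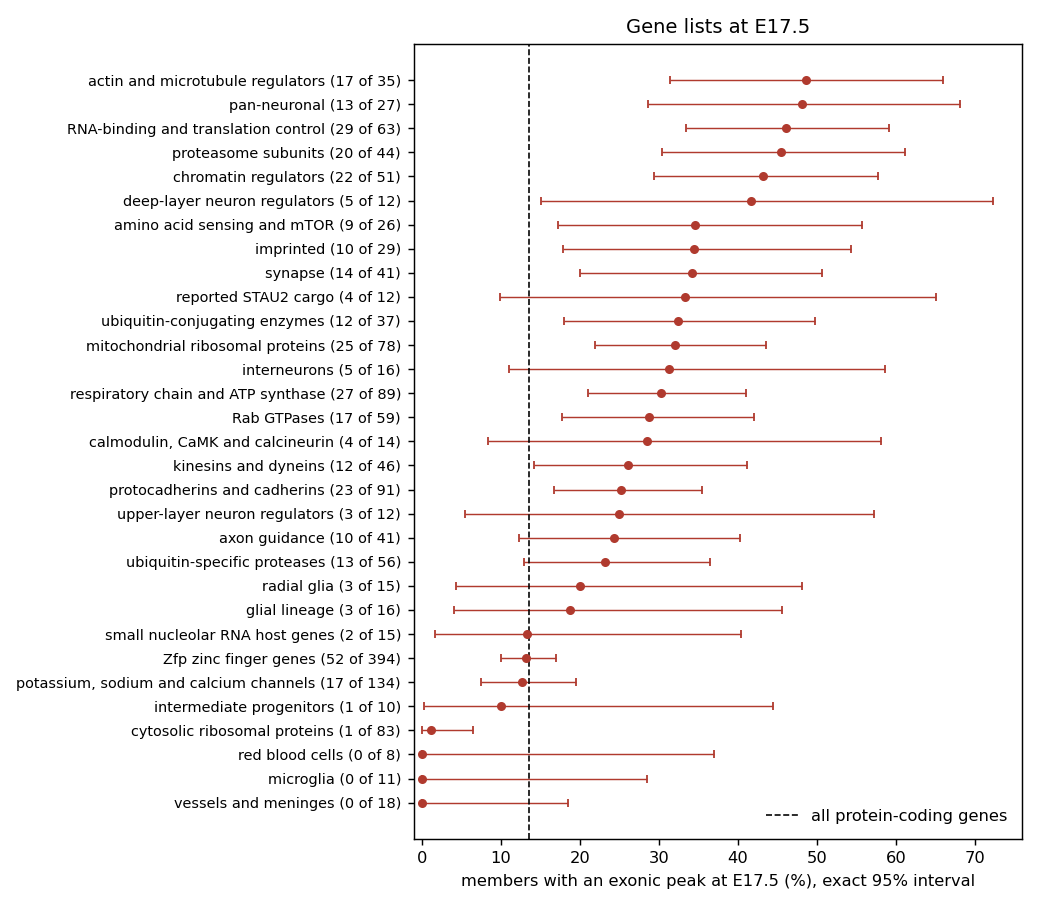
Percent of the members of each gene list with an exonic peak at E17.5 (horizontal axis), with exact 95% intervals over genes and the number with a peak in parentheses. The dashed line is the 13.6% of all annotated protein-coding genes, expressed in the cortex or not, and leaves out the noncoding genes that some lists hold. Cytoskeletal, pan-neuronal, RNA-binding, proteasome and chromatin lists lie between 43.1% and 48.6%, while cytosolic ribosomal proteins lie at 1.205%.

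Housekeeping complexes differed from one another. Of 44 proteasome subunit genes, 20 had a peak (45.5%, 30.4% to 61.2%), led by Psmb7 at rank 55, and 10 had their best peak in CDS. Of 78 mitochondrial ribosomal protein genes 25 had one (32.1%), and of 89 respiratory chain and ATP synthase genes 27 (30.3%), with Ndufs3 at rank 182. Of 83 cytosolic ribosomal protein genes only Rpl37 had one, in a noncoding exon at rank 5748 (1.205%, 0.0305% to 6.53%). Of 37 ubiquitin-conjugating enzyme genes, 12 had a peak at E17.5, and over the 4 days the share was 43.2%, 51.4%, 62.2% and 32.4%. Of 59 Rab GTPase genes 17 had a peak (28.8%), of 56 ubiquitin-specific protease genes 13 (23.2%) and of 15 host genes of small nucleolar RNAs 2 (13.3%). The intervals of the protease list (12.98% to 36.4%) and of the host gene list (1.66% to 40.5%) hold 13.6%. The 2 host genes with a peak, Snhg5 and Snhg1, are long noncoding RNAs, a class that the 13.6% does not cover. Of 394 Zfp zinc finger genes, 52 had a peak, or 13.2%, near the share of all genes. In the protocadherin and cadherin list, 21 of the 23 genes with a peak are Pcdhg genes, which share their constant exons, so they stand for shared sequence and not for separate targets.

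The lists of layer, interneuron, progenitor and glial genes had a peak in 10.0% to 41.7% of their members, beside the 13.6% of all protein-coding genes. Each holds 10 to 16 genes, and the exact interval includes 13.6% for all of them but the deep-layer list (15.2% to 72.3%). That list rests on 5 of 12 genes. At 4 of 12, as for the reported STAU2 cargo, the interval is 9.92% to 65.1% and holds 13.6%. A peak compares RNA recovered with STAU2 with that of the input and does not give the level of a gene. Among layer regulators, Fezf2 (CDS, rank 317), Pcp4, Ldb2, Crym and Tbr1 of 12 deep-layer genes had a peak, and Lhx2 (3' UTR, rank 252, 5 peaks), Mdga1 and Lmo4 of 12 upper-layer genes. The better ranked of the 2 Pcp4 peaks (rank 321) is 31675 bp wide with its midpoint in an intron of Igsf5, so that assignment is uncertain. The Crym peak (rank 4167) lay in a noncoding exon with a signal of 2.76. Lhx6, Gad1 and Npy were among the interneuron genes with one. Of 15 radial glia genes, Fabp7, Notch2 and Tnc had one, and of 16 glial lineage genes, Aldoc, Nfix and Apoe. Of 10 intermediate progenitor genes only Gadd45g had one at E17.5, and over the 4 days the list had 2, 5, 8 and 1. The share of all protein-coding genes on those days was 9.09%, 11.8%, 19.9% and 13.6%. None of 18 vessel and meninges genes (upper limit 18.5%), 11 microglial genes or 8 red blood cell genes had a peak. Of the shorter defining marker sets, 1 of 8 for radial glia (Fabp7), 1 of 8 for cortical neurons (Tbr1) and 2 of 5 for interneurons had a peak. The lists hold no expression values, so the tissue label could not be checked against marker levels.

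Of the 2972 genes, 777 had no exonic peak in the lists of the other days (26.1%), 1040 were shared with 1 other day, 766 with 2 and 389 with all 3 (13.1%). By day, 713 were shared with E11.5, which is 24.0% of the E17.5 genes and 35.8% of the E11.5 genes. With E13.5, 1161 were shared (39.1% and 45.0%), and with E15.5, 1865 (62.8% and 42.8%). Absence from a day's list is not a test of absent binding.

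**Figure D5:**
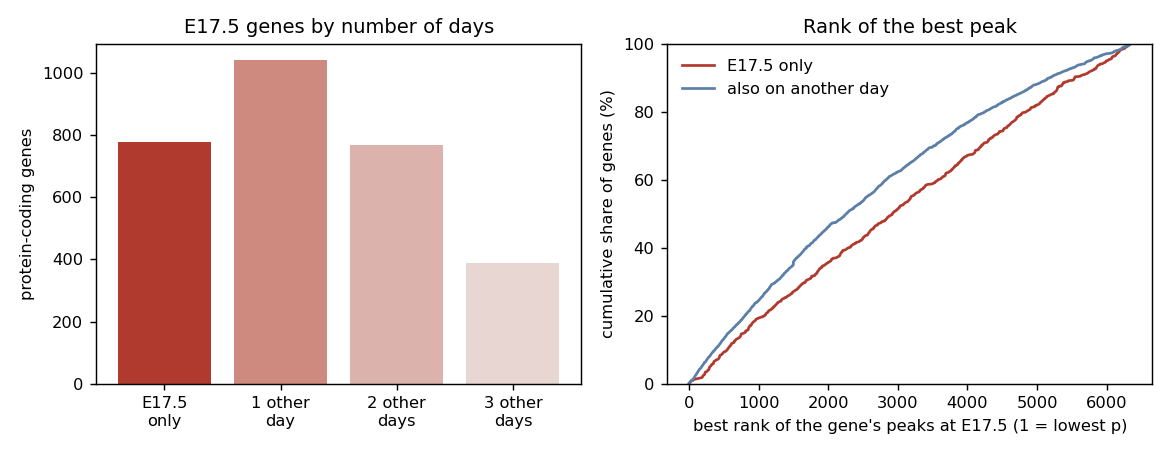
Left, protein-coding genes with an exonic peak at E17.5 (count) by the number of other days on which they also had one, 777, 1040, 766 and 389. Right, cumulative share of genes (percent) by the rank of the best E17.5 peak, where the 777 genes of E17.5 alone lie to the right of the 2195 shared genes, with median ranks of 2924 and 2260.

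The genes listed at E17.5 alone were led by Fam124a (rank 4), Ppp3ca (13), Fahd2a (14), Sh3glb2 (16), which takes part in membrane curvature, Bloc1s2 (29), a subunit of the BLOC-1 complex of endosomes, Pstk (30) and the telomere helicase gene Rtel1 (31). Unc79 (60), a subunit of a sodium leak channel, Atf6b (63), a stress transcription factor of the endoplasmic reticulum, and Ptprd (100), a synaptic receptor phosphatase, were also among them. The Unc79 peak has its midpoint in an intron and a signal of 13.82. Beside it lie 17 intronic Unc79 peaks that share a signal of 13.76 (chr12:103149280-103154526). The best peaks of the genes of E17.5 alone ranked lower on the whole, with a median rank of 2924 against 2260 for shared genes. In the top 500 peaks stood 9.27% of them, against 13.2% of the shared genes, and 75.7% had a single exonic peak, against 58.2%. The best peak was in the 3' UTR for 50.97% (47.4% to 54.5%), against 56.0% (53.9% to 58.1%). When a peak anywhere in the gene body on another day also counted, 736 genes remained, and 690 with either strand counted.

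Some lists held more of these genes than others. Of the 27 respiratory chain and ATP synthase genes with a peak, 15 had one at E17.5 alone (55.6%), against 26.1% of all genes with a peak. They include Uqcrfs1, Cox7c, Atp5h, Ndufs7, Ndufs4, Cox6b1 and Cox5a, which span complexes I, III, IV and the ATP synthase. Over the days, 14, 13, 26 and 27 genes of this list had a peak, or 15.7%, 14.6%, 29.2% and 30.3%. The share of all protein-coding genes was 9.09%, 11.8%, 19.9% and 13.6%. Of the 14 synapse genes with a peak, Grin1, Grin2b, Shank2 and Rims1 had none on another day (28.6%). Of the 20 proteasome genes with a peak, 6 had none. Both shares lie close to the 26.1% of all genes with a peak. Among the 17 cytoskeletal regulators with a peak only Dbnl, and among 22 chromatin regulators only Ehmt1, was listed at E17.5 alone. Kif1a had no exonic peak on another day but did have a peak elsewhere in the gene body.

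At the other end, the best ranked of the 389 genes with a peak on all 4 days were Gm47283, Gsk3a, Trp53bp1, Nxf1, Atf7ip, the RNA-binding protein gene Hnrnpdl (rank 51), Celf3, the ubiquitin ligase gene Rnf181 (61), Nr2e1, a nuclear receptor of neural stem cells (64), and Wasf1 (67). Sharing a gene did not mean sharing a position. Of the 4873 exon-touching peaks, 32.5% overlapped a peak of another day, with 6.90% overlapping one of E11.5, 12.8% of E13.5 and 23.0% of E15.5. For 1169 of the 2195 shared genes (53.3%) at least 1 position overlapped. In 3' UTRs 36.3% of peaks recurred, and among intronic peaks 13.5%. Only 75 exon-touching peaks (1.54%) were met on every other day, the best ranked being in Wasf1, Pafah1b3, Ube2b, Fezf2, Meaf6, Sept3, Rcor2 and Cfl2. In Cfl2, a muscle and brain relative of cofilin, the E17.5 peak (chr12:54860390-54860540, 3' UTR, rank 734) shared its genomic end with the E13.5 peak (chr12:54860394-54860540, rank 3487).

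The base composition of the peaks differed between transcript parts. Over 3887 peaks of 30 to 300 nt, the median GC content was 51.9%, with 49.1% in 3' UTRs, 55.7% in CDS and 61.8% in 5' UTRs. Set beside flanks of the same length in the same transcript, 1779 of 3559 peaks had the higher GC content (49.99%), and the median difference was 0 percentage points. The computed minimum folding energy had a median of -20.7 kcal/mol per 100 nt in peaks and -21.8 in flanks, and 45.4% of peaks had the lower, more stable value. In 5' UTRs, with 39 pairs, the medians were -19.0 in peaks and -24.9 in flanks, and 33.3% of peaks had the lower value. Among 1648 peaks of 60 to 120 nt, the best hairpin of at most 30 nt had a median of -6.9 kcal/mol, and 292 (17.7%) had one at or below -10 kcal/mol, which was 15.9% in 3' UTRs and 21.5% in CDS. Pairing with distant parts of the transcript was not computed.

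Outside protein-coding genes, 67 peaks touched an exon of a long noncoding RNA and no coding gene, in 47 genes. Gm16973 (rank 20), 2900076A07Rik (32), Gm45169 (202) and C230057M02Rik (386) led them. The imprinted noncoding RNAs Mirg (rank 1040, 4 peaks of the identical signal 9.234), Peg13 (1058) and Rian (1732) also had peaks. They belong to a list of 29 imprinted genes of which 10 had one (34.5%, 17.9% to 54.3%). Exons of 163 processed pseudogenes were touched by 183 peaks, where reads may come from the parent gene.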

How the data were processed

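STAU2 RIP and input libraries of E17.5 cortex (3 each) stand behind 2 peak lists, 1 per strand. The authors deposited for each peak a score, a signal, a p-value and a q-value without column names; the signal's scaling is not stated. Coordinates are in mm10 and the tools named are Cufflinks 2.2.1, bedtools 2.17.0, TopHat and TopHat2 2.0.9, per the submitters' processing notes. Neither peak caller nor test is named: both were not given in the sources used here. The deposited q-values stayed below 0.01. Candidate numbers were recovered from q, p and rank, as in a Benjamini-Hochberg adjustment, which in the E17.5 lists gave the same number to within 0.5 for 92.3% of plus-strand and 90.4% of minus-strand peaks.

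Gene models and transcript sequences were GENCODE vM21 (GRCm38, the assembly of mm10). A gene had a peak when an exon on the peak's strand shared at least 1 bp with it. Class was read at the midpoint over all isoforms, with 3' UTR ahead of CDS, then 5' UTR and noncoding exons, and these ahead of introns, antisense and intergenic positions. Positions within the CDS and 3' UTR used the longest coding isoform. Whole-transcript positions and sequences used it where it held both peak ends, and otherwise another coding isoform that did. Sequences were folded with ViennaRNA 2.7.2; flanks were taken in the spliced transcript, since a genome sequence was not used here. Exact intervals used scipy 1.17.1. The gene assignment was tested on simulated peaks placed in known exons. The genes named were the 10 best ranked, the leading genes per transcript part and with most peaks, the 15 best of E17.5 alone, up to 6 per gene list, and the best on all 4 days; Slc25a39 and Nr2f6 were chosen by their computed hairpins and further list members after their values were seen. The members and the gene lists were chosen with earlier results of these data known. No test was run, as no library has values of its own. Alternatives changed the overlap rule, isoform, peak width, strength and class rule. A few genes that these rules would name are not reported here.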

Additional observations from a re-analysis of the deposited data

How the results depend on the processing

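No paired analysis was possible because the replicate numbers of the labels have no values in the lists, and for the same reason no replicate could be left out. The 2972 genes came to 1844 with the stronger 50% of peaks by rank, and the 777 genes of E17.5 alone to 421. The 3' UTR share of 60.4% came to 44.2% with any overlap and the CDS first, 62.8% with the longest isoform, 63.0% with 1 peak per gene and 62.4% with the stronger 50% of peaks. The intronic share of 27.5% came to 20.7% without the 20 largest hosts and 24.3% with the stronger 50% of peaks, and, under settings added after seeing the data, to 21.7% with peaks of identical signal counted once and 15.3% without peaks that touch an exon. The recurring share of 32.5% came to 23.2% with at least 50% of the peak covered and 36.7% with the stronger 50% of peaks. The cause of the moves under the strength and isoform settings was not tested. The others follow from what each setting removes, adds or reorders. The other 13 recomputed values stayed within their interval, a factor of 1.5, the quartiles over peaks or, for the GC difference, 1 percentage point. The GC difference stayed at 0. The folding energy and the positions along the 3' UTR and transcript were held only to the quartiles, a wide mark. For the transcript position these were 0.52 and 0.87, which also hold the medians of E13.5 and E15.5. The median of 0.73 came to 0.75 with 1 peak per gene and 0.68 in genes with exonic peaks on all 4 days. Flanks were planned in the genome and were taken in the transcript. Unknown depth limits every comparison between days.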

Other observations

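The signal of a peak and its rank were far apart in places. The highest signal of the day in the authors' deposited list, 438225, was that of the predicted noncoding gene Gm42418, whose peak ranked 5210. A peak antisense to Gnb1l (chr16:18533267-18533321, minus strand) had 271254 at rank 293. A peak between genes on chromosome 15 (chr15:47540020-47540075, plus strand) had 48988 at rank 6308. The median signal of 3' UTR peaks was 28.5.

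The length of a transcript was only weakly related to holding a peak. In 5 groups of protein-coding genes by transcript length, from the shortest to the longest, 8.77%, 14.4%, 15.1%, 15.3% and 14.2% had an exonic peak at E17.5. Genes with a peak had a median of 10 exons, against 6 for genes with none.

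Peaks over 5000 bp numbered 57 at E17.5 and held 31.3% of the covered bases; 41 of them ran over a whole intron.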
